A study of Mus musculus with 106 samples.

Results

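In mouse liver given the LXR agonist GW3965, 3782 regions were called more accessible than with vehicle, held a Foxa2 peak, and met no region gained in 3 other ATAC-seq comparisons. They were chosen by values of these same data: each was a region of the authors' GW3965-over-vehicle list in WT liver, shared at least 1 base with a Foxa2 ChIP-seq peak of WT liver given GW3965, and shared no base with a gained region of WT liver given T09, WT liver given GW4064 or Foxa2-KO liver given GW4064. They made up 6.02% of the 62838 regions of the GW3965 list and, at 4.70 Mb in total, 23.2% of its bases. GW3965-only below means that a region met none of the other 3 ATAC lists.

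The study compared livers of WT and Foxa2-KO mice given an agonist of a bile acid or oxysterol receptor, or vehicle. The ATAC-seq, Foxa2 ChIP-seq and FXR ChIP-seq samples were labelled as 4 h after it, in animals 8 to 12 weeks old. GW3965 and T09 (T0901317) are agonists of LXR, and GW4064 is an agonist of FXR. ATAC-seq, which reads open chromatin, had 2 samples labelled for WT GW3965 and 2 for its vehicle, 2 and 2 for WT T09 and its vehicle, and 3 and 3 for GW4064 and its vehicle in each genotype. Foxa2 ChIP-seq was on WT liver alone, with 1 sample each for GW3965, T09, the vehicle of those agonists, GW4064 and its own vehicle; the labels of the GW3965 sample, the T09 sample and their vehicle put 3 replicates behind a single file. FXR ChIP-seq had 2 samples a group (Foxa2-KO and WT, GW4064 and vehicle). LXR ChIP-seq, on C57BL/6 animals of 3 months, had 3 samples a group in Foxa2-KO liver and 1 in WT liver. Its groups were agonists labelled GW and T09, and vehicle. PPAR ChIP-seq on like animals had 2 samples a group (Foxa2-KO and WT, each with GW3965, GW4064, T09 and vehicle). The labels of the LXR and PPAR samples give no time after the agonist. The knockout is given as Foxa2loxP/loxP;Alfp.Cre, in which Cre is driven by albumin and alpha-fetoprotein regulatory sequences and so acts in the liver epithelium. The labels speak of oral gavage and the series text of injection. GW3965 ATAC-seq of Foxa2-KO liver was not analysed here, so whether these regions open without Foxa2 was not tested.

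Foxa2 is a forkhead transcription factor of endoderm and liver that can bind its sites in closed chromatin and is known as a pioneer factor. LXR, bound to DNA as a dimer with RXR, responds to oxysterols, and in liver turns on genes of cholesterol efflux, bile acid synthesis and fatty acid synthesis. FXR is the bile acid receptor and PPARα the receptor for fatty acids that drives their oxidation.

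Promoters are shown first where a gene start lay inside the regions and a forkhead motif lay before it. The 5 below are the named genes with such a motif in the 250 bases before the start, 5′ to 3′ on the gene's strand, from RefSeq (GRCm38), with the motif in capitals. The motifs searched were TGTTTAC and TATTTAC on both strands. Elovl6 (a fatty acid elongase), at 3:129532136-129532385 on the plus strand, Apoa2 (an HDL apolipoprotein), at 1:171224804-171225053 on the plus strand, and Ugt2b1 (a glucuronosyltransferase), at 5:86926504-86926753 on the minus strand, had a Foxa2 GW3965 peak in the window. Ocel1, at 8:71371048-71371297 on the plus strand, and Slc26a1 (a sulfate transporter), at 5:108675366-108675615 on the minus strand, had none there, their Foxa2 peak lying elsewhere in the same region. The first base of the motif stood 123 bases before the start in Elovl6, 77 in Apoa2, 144 in Ugt2b1, 156 in Ocel1 and 42 in Slc26a1.
Elovl6: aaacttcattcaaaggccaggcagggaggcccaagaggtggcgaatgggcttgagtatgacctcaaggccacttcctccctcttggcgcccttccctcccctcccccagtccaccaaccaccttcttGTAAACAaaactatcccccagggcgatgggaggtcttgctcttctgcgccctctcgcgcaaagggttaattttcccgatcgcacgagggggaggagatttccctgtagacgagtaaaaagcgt
Apoa2: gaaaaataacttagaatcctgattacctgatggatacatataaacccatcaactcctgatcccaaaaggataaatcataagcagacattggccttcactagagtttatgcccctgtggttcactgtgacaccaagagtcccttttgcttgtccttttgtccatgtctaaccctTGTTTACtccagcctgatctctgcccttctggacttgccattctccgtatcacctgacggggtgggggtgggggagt
Ugt2b1: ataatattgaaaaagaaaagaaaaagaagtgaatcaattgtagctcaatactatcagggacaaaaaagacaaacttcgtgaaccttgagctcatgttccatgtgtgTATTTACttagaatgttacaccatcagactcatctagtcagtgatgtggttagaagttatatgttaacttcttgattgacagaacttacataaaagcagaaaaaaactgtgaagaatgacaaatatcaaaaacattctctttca
Ocel1: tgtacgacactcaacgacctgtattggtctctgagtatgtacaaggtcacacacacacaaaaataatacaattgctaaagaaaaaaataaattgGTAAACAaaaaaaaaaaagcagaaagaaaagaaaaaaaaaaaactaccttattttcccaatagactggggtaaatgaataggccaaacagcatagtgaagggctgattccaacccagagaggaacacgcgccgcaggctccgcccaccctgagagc
Slc26a1: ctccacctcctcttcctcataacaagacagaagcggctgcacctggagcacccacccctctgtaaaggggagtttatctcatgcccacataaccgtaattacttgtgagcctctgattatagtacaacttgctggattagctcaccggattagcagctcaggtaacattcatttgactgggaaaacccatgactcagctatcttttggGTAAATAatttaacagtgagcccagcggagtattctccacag

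Across all promoters whose gene start lay in these regions, forkhead letters were found mostly where the Foxa2 peak itself lay. In windows from 250 bases before to 50 after the start, 83 of 712 promoters (11.7%) held a forkhead motif, against 6.54% of all 32851 promoters. With a Foxa2 GW3965 peak in the window the share was 19% (77 of 406), and without it 1.96% (6 of 306). Promoters with a Foxa2 peak outside these regions held the motif in 20% of cases (283 of 1415), close to the 19% in the regions. The receptor hexamer AGGTCA was in 17.6% of promoters in the regions and 16.3% of all promoters. A direct repeat of that hexamer spaced by 4 bases, the arrangement known for LXR, was in 0 of 712 promoters in the regions and in 5 of all 32851. Median GC content was 58.7% in the regions' promoters, 60.3% in promoters of GW3965-only regions without Foxa2 and 52.7% in all promoters. A match is a description of letters, and no match says only that these letters were not in the window.

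The regions were broad and modestly gained. Their median width was 914.5 bases (interquartile range 558 to 1546, range 9 to 13640), against 102 bases for the 51656 GW3965-only regions without a Foxa2 peak. The median of the authors' deposited fold over vehicle was 1.433 (interquartile range 1.284 to 1.666), against 3.812 for those without a Foxa2 peak. The difference in fold was small between regions of like width: at 600 to 1199 bases the median fold was 1.438 with and 1.523 without a Foxa2 peak, and at 1200 to 2399 bases 1.295 with and 1.289 without. The 1045 regions that held a Foxa2 peak but met another ATAC list were much like them, at a median of 1055 bases and a fold of 1.435. The regions stood early in the authors' order, with 184 of the first 500 entries and 1200 of the first 5000. By the authors' q-value, 1815 of them (48%) were at or under 0.01, against 16.1% of the GW3965-only regions without Foxa2. These values are from the contrast that chose the regions, and each list is 1 set of calls for a whole group with no value per animal, so no test was run on them or on any count below. In bulk liver, more cells with an open site and a more open site per cell cannot be told apart.

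**Figure D1:**
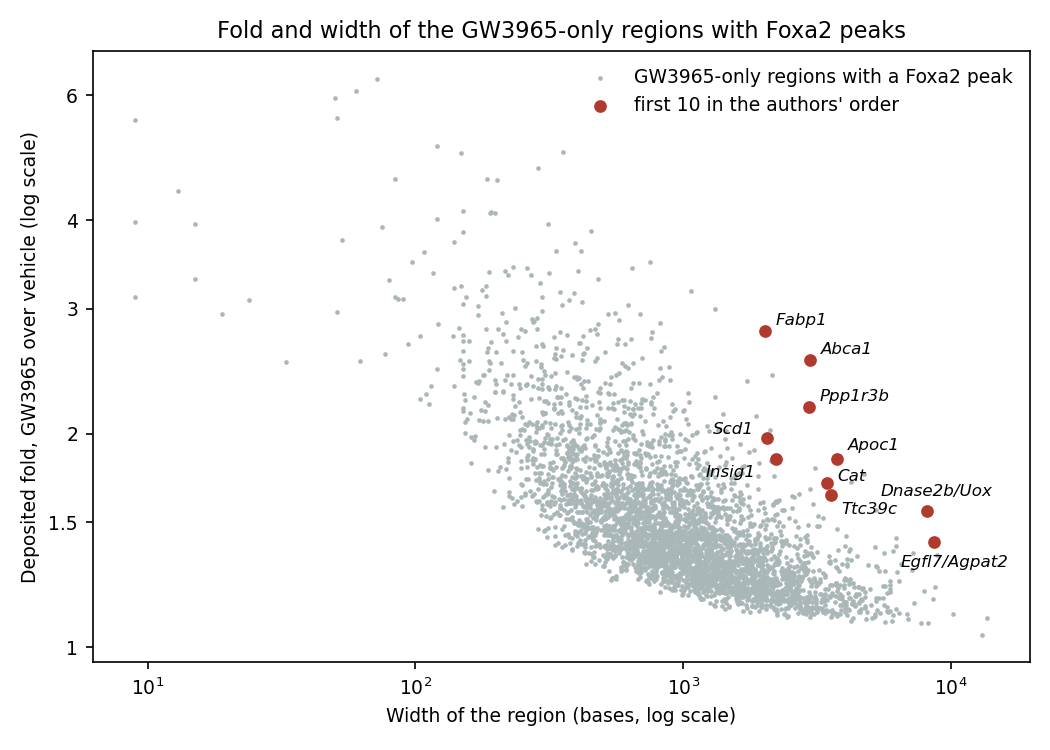
Fold over vehicle as deposited by the authors (y axis, log scale) against width in bases (x axis, log scale) for the 3782 regions, each a grey point, with the first 10 in the authors' order in red and named by the gene overlapped or nearest. Fold falls with width, and the first 10 lie at the upper right edge, with widths of 2019 to 8613 bases and folds of 1.406 to 2.79.

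The first 10 regions are described by the gene overlapped or nearest, which lay up to 156756 bases away. The first, at 4:53217293-53220269, had a deposited fold of 2.537 over vehicle (the authors' q 1.20e-57) and lay 57304 bases from Abca1, the cholesterol efflux pump. It held the start of Lexis1, a noncoding liver RNA known as an LXR-induced brake on cholesterol synthesis. Its LXR peak with GW, at 4:53218165-53218311 (entry 384 of the LXR list), was centred 123 bases after that start on the gene's strand, and LXR peaks at the same place were entry 104 with T09 and entry 226 with vehicle. Its Foxa2 peak, at 4:53219556-53219738, was centred at -1286 bases from the start, upstream of it, and was a late entry (16189), in none of the other 4 Foxa2 lists. So at this site the LXR peak was listed with and without agonist, and the Foxa2 peak with GW3965 alone. Lexis1 was named after its values were seen.

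The region 5101 bases from Scd1 (stearoyl-CoA desaturase), at 19:44387297-44389348, had a deposited fold of 1.97 and was the other of the first 10 with an LXR GW peak (entry 4426). LXR peaks there were entry 85 with T09 and entry 1877 with vehicle, and all 3 overlapped the Foxa2 peak at 19:44388420-44388987 (entry 6290), which recurred with T09 and GW4064 and not with vehicle. Insig1, which holds the SREBP escort in the endoplasmic reticulum, had its first region 32556 bases away, at 5:28036629-28038855 with a fold of 1.844. No LXR list had a peak in that region, and its Foxa2 peak (entry 17344) was in no other Foxa2 list. Insig1 had 4 regions within 50 kb. The nearest, at -17.539 to -15.31 kb from its start, held a Foxa2 peak (entry 2396) that recurred with T09, GW4064 and vehicle.

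Fabp1, the liver fatty acid binding protein, had regions at both ends. The region 147 bases beyond its end, at 6:71205182-71207200, had the highest deposited fold of the first 10, 2.79, and a Foxa2 peak (entry 18553) found in no other Foxa2 list. The region over its start, at 6:71199487-71202549, had a fold of 1.593 and a Foxa2 peak that recurred with T09. The region over the start alone covered 51.8% of the gene, the other lying wholly beyond its end. Between them lay a GW3965 region that met the T09 and GW4064 ATAC lists and so was not counted here. Fabp1 had 5 regions within 50 kb, the others lying before its start. Those beginning at -27.512 and -14.908 kb held Foxa2 peaks (entries 255 and 1381) that recurred with T09, GW4064 and vehicle. The one beginning at -43.175 kb held a Foxa2 peak (entry 16834) found in no other Foxa2 list.

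The region 336 bases from Apoc1, an apolipoprotein of the Apoe cluster, lay at 7:19685378-19689143 with a fold of 1.844, and a second, at 7:19690936-19697174 with a fold of 1.39, ran from Apoc1 into Apoe. The first held a Foxa2 peak in all 5 Foxa2 lists (entries 2003 with GW3965 and 1774 with vehicle). Cat (catalase) held a region with a fold of 1.703 at 2:103464548-103467981, whose Foxa2 peak was entry 385 with GW3965 and was in all 5 lists. The region over Dnase2b and the start of Uox (urate oxidase) was 8099 bases wide with a fold of 1.556. The region over Egfl7 and Agpat2, an enzyme of triglyceride synthesis, was 8613 bases wide with a fold of 1.406, and neither of its Foxa2 peaks was in another Foxa2 list. The other 2 of the first 10 lay in Ttc39c (fold 1.64) and 156756 bases from Ppp1r3b, a glycogen-targeting subunit (fold 2.181). Of the first 10 regions, 4 (near Abca1, Insig1, Fabp1 and Agpat2) held Foxa2 peaks listed with GW3965 alone, and 2 (near Apoc1 and in Cat) held Foxa2 peaks of every list. Over all 3782 regions, 27.9% met no other Foxa2 list and 17.9% met all 4 others. Among the regions in the first 500 ATAC entries, 31.5% met no other.

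**Figure D2:**
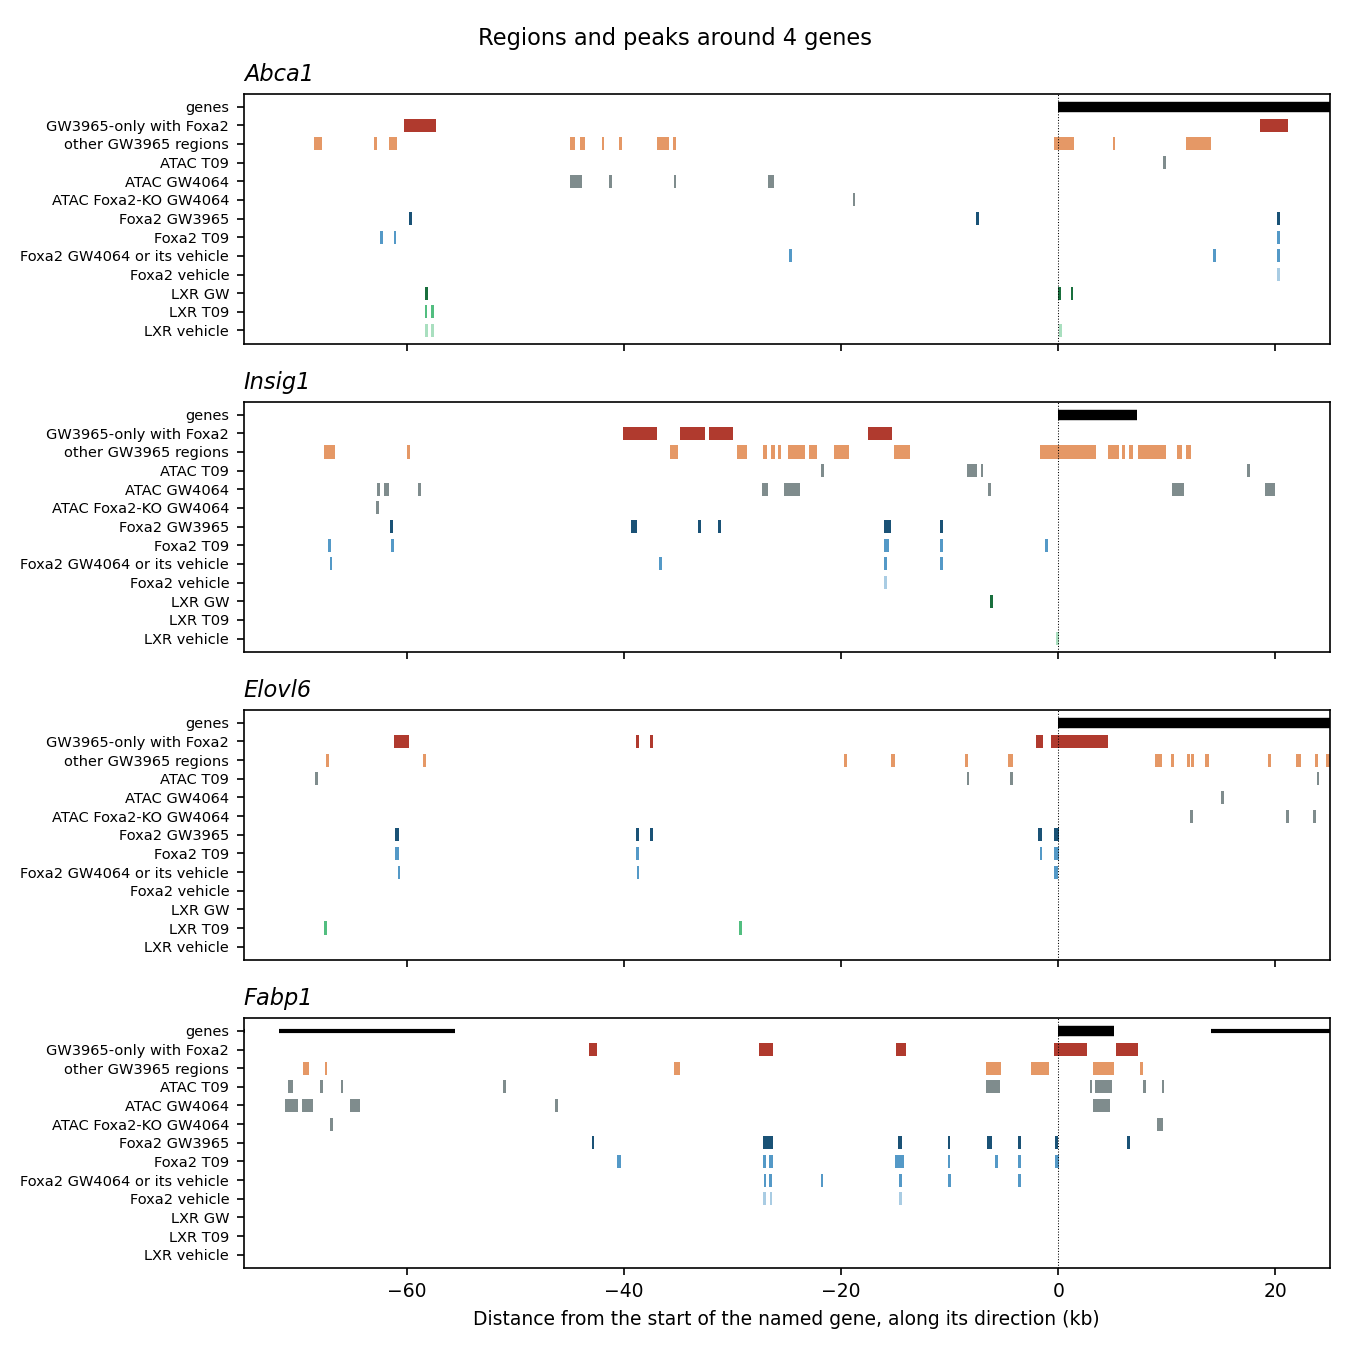
Regions and peaks from 75 kb before to 25 kb after the start of Abca1, Insig1, Elovl6 and Fabp1 (x axis, kb along the gene's direction; genes black, the named one thick; marks under 0.25 kb are drawn at that width). Red bars, the GW3965-only regions with a Foxa2 peak, stand before and within the gene at Abca1 and before it at Insig1. They stand before the gene and over its start at Elovl6, and before the gene, over its start and beyond its end at Fabp1. LXR marks lie under the left red bar in the Abca1 panel.

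The extremes of the set differed from its head. The widest were at Nr2f6 (an orphan nuclear receptor, with Ocel1 and Ushbp1; 13640 bases, fold 1.099), Sfi1 (12996 bases, fold 1.042), Idua and Slc26a1 (10212 bases, fold 1.114), Vps13d and Dhrs3 (8896 bases, fold 1.35) and Ninj1 (8748 bases, fold 1.217). The highest folds were in short regions, in Cbwd1 (6.331 over 72 bases), Atp2b1 (6.088 over 60), Slc27a3 (5.946 over 50) and Erlin1 (5.54 over 9) and near Gask1a (5.569 over 51). The 5 with the most Foxa2 peaks, 4 each, were in Bach2, Foxo3 (a forkhead factor of the fasting response), Slc6a13 and Efna1 and near Spag9. In most regions the Foxa2 peak was single: 3443 held 1 peak, 291 held 2, 43 held 3 and 5 held 4.

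At the edge of the rule, 2881 regions (76.2%) held a whole Foxa2 peak, and the median overlap was 290 bases. Only 6 regions shared under 10 bases with their Foxa2 peak (widths 9 to 568 bases, folds 1.721 to 5.54). Of the GW3965-only regions left out, 2 had a Foxa2 peak within 10 bases (widths 96 and 427, folds 1.734 and 2.498). Within 1000 bases, 1134 of those 51656 regions had one, so a region called without a Foxa2 peak can lie close to one. A region of another ATAC list lay within 1000 bases of 746 of the regions (19.7%).

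The Foxa2 peaks in these regions were much like Foxa2 peaks elsewhere. Of the 21245 Foxa2 GW3965 peaks, 4170 (19.6%) met the regions and 15932 (75%) met no GW3965 region. The median width was 296 bases inside and 271 outside, and the median entry 9204.5 inside and 11055.5 outside. The regions held a T09 Foxa2 peak in 64.6% of cases, a GW4064 peak in 55.4% and a vehicle peak in 24.5% (26.6% for the vehicle of GW4064, against 2.1% of all GW3965 regions). Among all GW3965 regions 5.68%, 4.64% and 1.84% held a T09, GW4064 or vehicle peak, but these shares follow from choosing regions that hold a Foxa2 peak. Counted by peak, 62% of Foxa2 peaks inside and 57% outside recurred with T09, 52.6% and 51.8% with GW4064, and 22.8% and 19.4% with vehicle. At the same place in the Foxa2 list the peaks inside recurred about as often or less: at entries 4001 to 10000 the shares inside and outside were 75.6% and 78.7% with T09, 64.3% and 71.1% with GW4064, and 16% and 17.7% with vehicle. The vehicle list is much shorter (4348 peaks), so a peak missing from it may lie under its threshold.

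**Figure D3:**
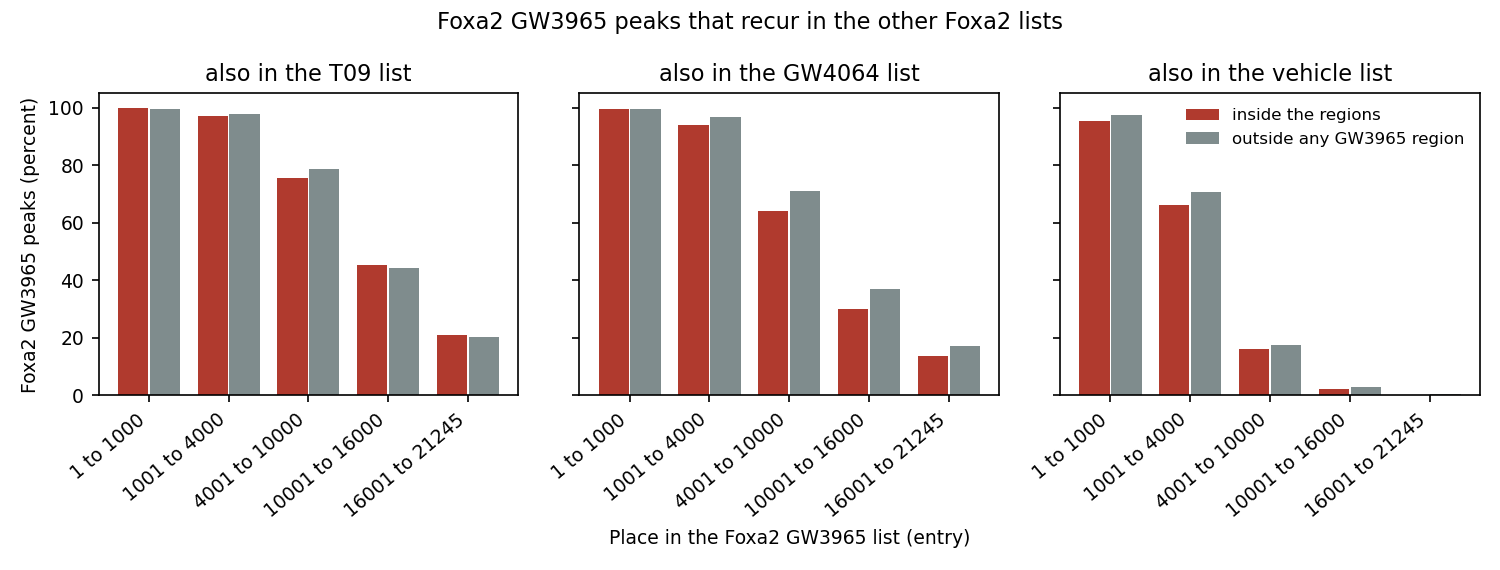
Percent of Foxa2 GW3965 peaks that also lie in the T09, GW4064 and vehicle Foxa2 lists (y axis), by place in the GW3965 list (x axis), for peaks inside the regions (red) and outside any GW3965 region (grey). Red and grey bars stand close in each class, and both drop with the entry, with vehicle to under 3% from entry 10001 on.

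By how many of the other 4 Foxa2 lists they met, the regions divided into 1056 with none (27.9%), 796 with 1, 793 with 2, 459 with 3 and 678 with all 4 (17.9%). A vehicle peak of either experiment was in 1250 (33.1%), so the other regions held Foxa2 peaks of agonist lists alone, with the vehicle lists the shorter ones (4348 and 7306 peaks). Regions with none had a median fold of 1.494 and a median Foxa2 entry of 15262.5, and regions with all 4 a fold of 1.356 and an entry of 1482. The place in the ATAC list made little difference to recurrence: a vehicle Foxa2 peak was in 28.3% of the regions among the first 500 entries, 25.9% at entries 501 to 5000 and 23.7% beyond. Centres of the Foxa2 GW3965 peaks lay at a median of 0.352 of the way from centre to edge of the region, and 67.4% were nearer the centre. The rule asked for overlap, and a peak wholly inside a region cannot be centred at its edge. These values therefore do not show that Foxa2 peaks favour the middle.

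Receptor peaks were rare in the regions, and FXR peaks were more frequent than LXR peaks. FXR peaks of WT liver given GW4064 lay in 134 regions (3.54%; 0.614% of all GW3965 regions) and FXR peaks with vehicle in 59 (1.56%; 0.24% of all). LXR peaks of WT liver given GW lay in 44 (1.16%; 0.516% of all), and LXR peaks with T09 and with vehicle in 21 each (0.555%; 0.263% of all with T09 and 0.177% with vehicle). The 1045 regions that held a Foxa2 peak but met another ATAC list had higher shares in the same order. Of these, 5.74% held a WT FXR peak with GW4064 and 2.49% a WT LXR peak with GW. The 8 PPAR lists met 0.0793% to 0.264% of the regions and 0.0111% to 0.105% of all GW3965 regions. In Foxa2-KO liver, FXR peaks with GW4064 lay in 1 region, against 134 in WT, from lists of 3901 and 22705 peaks, and LXR peaks with GW in 29, against 44 in WT, from lists of 8803 and 14219. Of all GW3965 regions, 0.0557% held a Foxa2-KO FXR peak with GW4064 and 0.29% a Foxa2-KO LXR peak with GW. As a share of each list, 0.0256% of the Foxa2-KO and 0.603% of the WT FXR peaks with GW4064, and 0.375% of the Foxa2-KO and 0.331% of the WT LXR peaks with GW, lay in the regions. The Foxa2-KO LXR lists carry a looser false discovery threshold in their names.

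Width had to be held fixed to compare these regions with GW3965-only regions that lack Foxa2. At 600 bases or more, FXR peaks with GW4064 were in 4.49% of regions with and 1.7% without a Foxa2 peak, and LXR peaks with GW in 1.62% with and 2.17% without. FXR was higher in each of 5 width classes, for example 5.18% with and 1.64% without Foxa2 at 1200 to 2399 bases, while LXR at that width was in 1.55% with (15 regions) and 3.17% without (31 regions). All 44 regions with an LXR peak were at least 600 bases wide, so the 2 narrowest classes had 0 LXR peaks among 270 and 794 regions, and the 3 wider classes had 14, 15 and 15. Counted by Foxa2 peak, the FXR share inside and outside was close: 2.71% of Foxa2 GW3965 peaks inside the regions and 2.41% outside any GW3965 region overlapped an FXR GW4064 peak. The 2 receptors also lay differently inside. FXR peaks overlapped the Foxa2 peak in 113 of 137 cases (82.5%), with a median of 96.5 bases between centres, and LXR peaks in 15 of 47 (31.9%), with a median of 443 bases. The regions that held them had median widths of 1344.5 bases for FXR and 1706.5 for LXR. Over the whole lists, 2.44% of FXR and 0.76% of LXR peaks overlapped a Foxa2 GW3965 peak. Every region was chosen to hold a Foxa2 peak, so the overlaps inside follow in part from the rule and are not comparable with these shares.

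**Figure D4:**
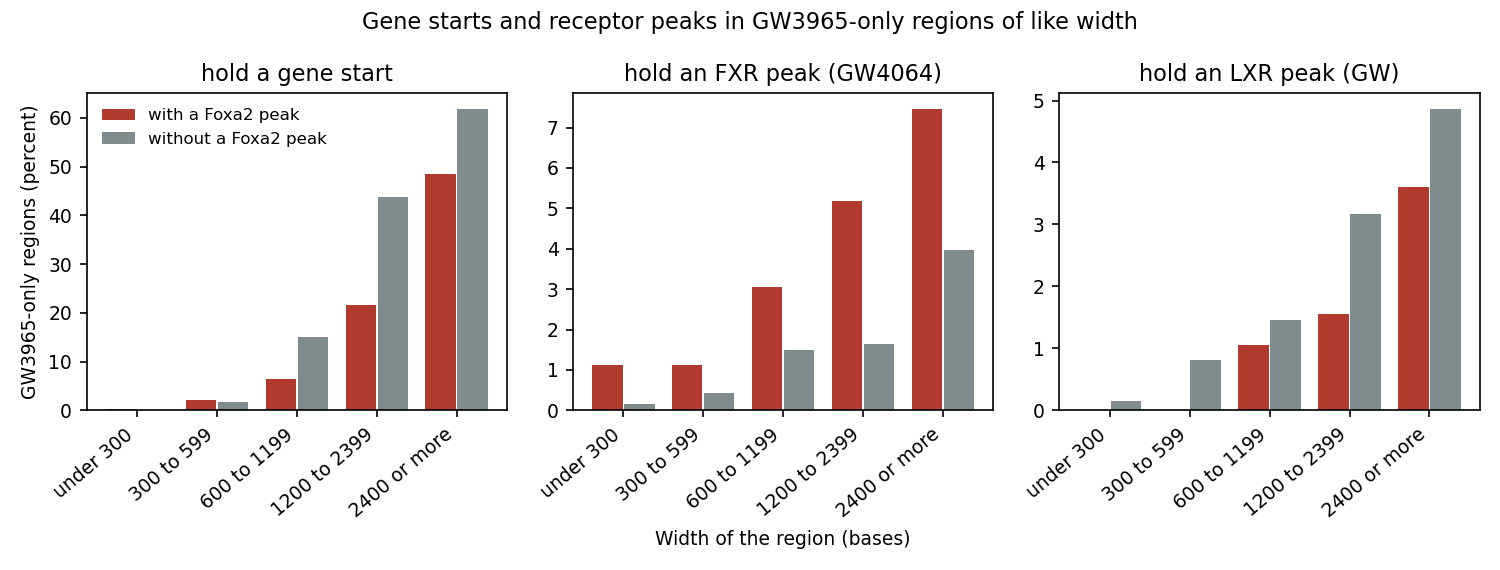
Percent of GW3965-only regions (y axis) that hold a gene start, an FXR GW4064 peak or an LXR GW peak, by width in bases (x axis), with a Foxa2 peak (red) and without (grey). Red stands above grey for FXR in every class, and below grey for LXR and gene starts from 600 bases up; the 2 narrowest LXR classes hold no red bar because no such region had an LXR peak.

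Of the 44 regions with an LXR GW peak, 8 held one of the first 1000 entries. The first 5 of these lay 101584 bases from Esp38 (LXR entry 1), in Sfi1 (entry 5), in Cenpu (entry 32), 188117 bases from Samd9l (entry 54) and 2565 bases from Gm4952 (entry 184). The regions near Esp38, in Sfi1 and near Samd9l held peaks of all 4 antibodies, which was true of 3 of the 3782 regions. Without those 3 the LXR share was 1.08% and the FXR share 3.47%. LXR peaks were most frequent at the head of the ATAC list, in 5.43% of the regions among its first 500 entries (10 regions), 1.18% at entries 501 to 5000 and 0.852% beyond. Median width fell in the same order, at 1880.5, 1073.5 and 824 bases, and was not held fixed in these shares.

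Gene bodies, with or without a start, met 2296 of the regions (60.7%), against 48.2% of the much narrower GW3965-only regions without Foxa2. Among GW3965 regions that met another ATAC list the share was 64.9% with and 63.9% without a Foxa2 peak. Width was not held fixed in these shares. Gene bodies without a start held 1846 (48.8%), starts of coding or noncoding genes 514 (13.6%; 3.22% of all GW3965 regions), and 392 (10.4%) lay within 10 kb of a protein-coding gene. Another 478 (12.6%) lay at 10 to 50 kb, 205 (5.42%) at 50 to 100 kb and 347 (9.18%) beyond. Regions over a start were the widest, at a median of 2071 bases, and the least gained, at a fold of 1.228, where regions in gene bodies had 857 bases and 1.448. At 600 bases or more, 18.2% of regions with and 26.4% without a Foxa2 peak held a start, so among these wider regions those with Foxa2 held fewer. Exons, introns and UTRs were not told apart, since the gene table at hand gives gene bounds only.

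Among 16 gene lists, LXR targets had the highest share of genes with a region nearby and Kupffer and stellate cell markers the lowest, at 0. Of 21887 protein-coding genes, 11% had a region in the body or within 10 kb. The share was 16 of 29 (55.2%) for LXR targets, 12 of 24 (50%) for fatty acid and triglyceride synthesis, 13 of 27 (48.1%) for bile acid synthesis and transport, 12 of 25 (48%) for nuclear receptors of liver, and 10 of 24 (41.7%) for hepatocyte identity. It was 7 of 18 (38.9%) for clock genes, 13 of 34 (38.2%) for fatty acid oxidation, 7 of 24 (29.2%) for plasma proteins and clotting, 5 of 20 (25%) for cholesterol synthesis and uptake, 3 of 14 (21.4%) for gluconeogenesis and 5 of 24 (20.8%) for cytochrome P450 and conjugation. These are counts beside the share of all genes. Genes differ in length and neighbours can share a region, and neither was adjusted for. The lists also share genes. Srebf1, Elovl6, Elovl5, Scd1 and others are in both the LXR target list and the fatty acid list. Abcg5, Abcg8 and Cyp7a1 are in both the LXR target list and the bile acid list. The shares of these lists are therefore not separate results.

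Foxa2 peaks outside any GW3965 region lay within 10 kb of 31.8% of all protein-coding genes, of 15 of 29 LXR targets (51.7%) and 12 of 24 genes of fatty acid synthesis (50%). They lay near 23 of 27 genes of bile acid synthesis and transport (85.2%) and 20 of 25 nuclear receptor genes (80%), lists that also had many GW3965-only regions with Foxa2. They lay near 14 of 14 genes of gluconeogenesis (100%), 23 of 24 of plasma proteins and clotting (95.8%) and 15 of 17 of the acute phase (88.2%), lists in which 3, 7 and 1 genes had a GW3965-only region with Foxa2. In the acute phase list that 1 gene was Cp (ceruloplasmin), and the fibrinogen genes Fga, Fgb and Fgg, Hp (haptoglobin) and Saa1 had none. GW3965-only regions without a Foxa2 peak, which are far more numerous, lay near 55.6% of all genes, 27 of 29 LXR targets (93.1%) and 1 of 17 acute phase genes (5.88%).

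**Figure D5:**
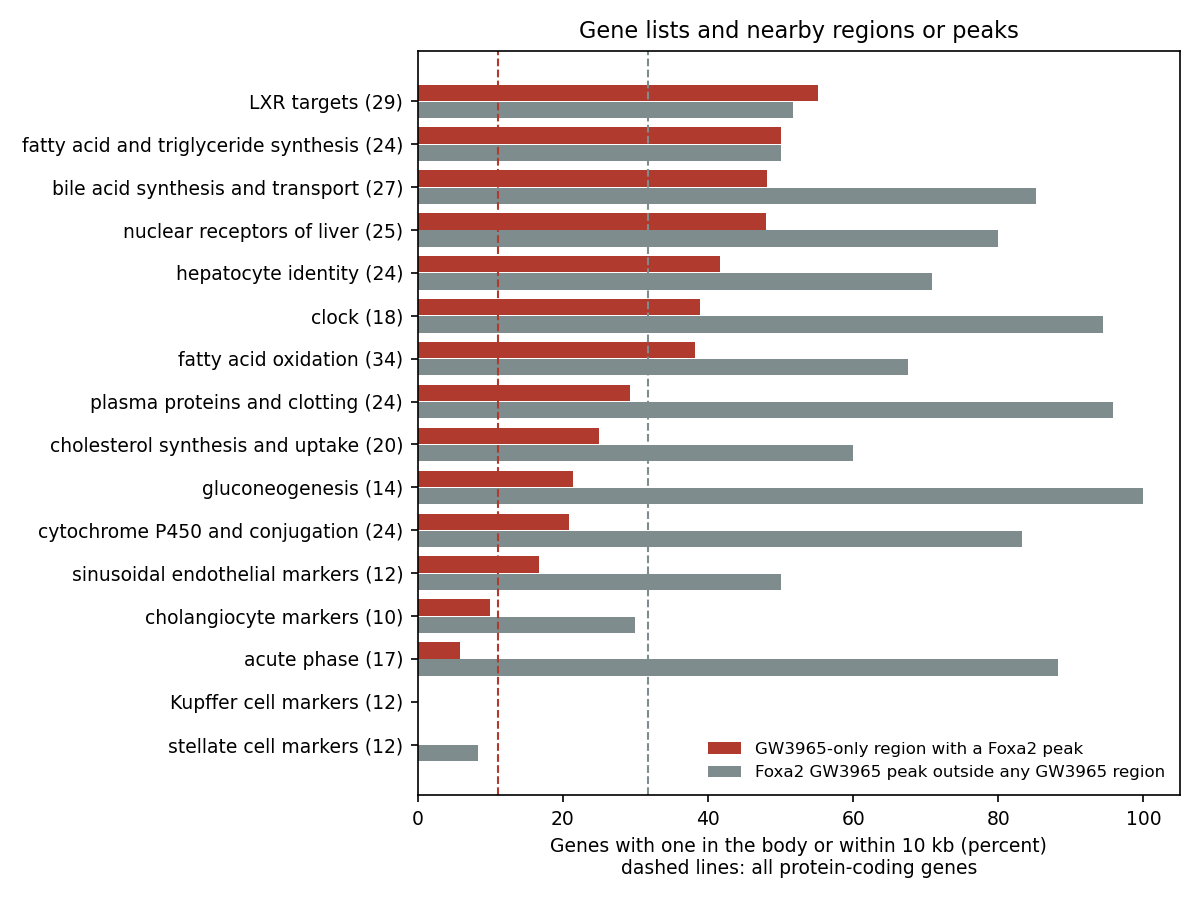
Percent of the genes of each list, with the number of genes in brackets, that had a GW3965-only region with a Foxa2 peak (red) or a Foxa2 GW3965 peak outside any GW3965 region (grey) in the body or within 10 kb; dashed lines give the same for all protein-coding genes (11% and 31.8%). Red bars are longest for LXR targets and lipid synthesis, grey bars for gluconeogenesis, plasma proteins, clock and acute phase genes.

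LXR targets with a region differed in where it lay. Apoc1 had 54.2% of its body inside the regions and Apoe 37.7%, and these were the 2 of 29 covered by at least 25% (6.9%; 0.58% of all genes). Srebf1 (SREBP1, the lipogenic factor) had 16.2%, in a region over a start at 11:60219450-60223527 with a fold of 1.333. Abcg8 and Abcg5, the paired sterol exporters, shared a region over their starts with a fold of 1.192. Elovl6 had 4 regions within 10 kb, Elovl5 had 5 and Cyp7a1 (the rate-limiting enzyme of bile acid synthesis) had 3, with 6, 7 and 7 within 50 kb. The 13 LXR targets with none within 10 kb included Abcg1, Fasn, Acaca, Pltp, Mylip and Nr1h3, which encodes LXRα. Lpl and Nr1h3 had regions at 10 to 50 kb, 3 and 2.

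Among lipid and bile acid genes beyond the LXR list, Agpat2 had 52.5% of its body in the regions, Hsd3b7 (an enzyme of bile acid synthesis) 61.9% in a region with a fold of 1.131, Slc27a5 (bile acid-CoA ligase) 22.6% and Nr0b2 (the corepressor SHP) 21.9%. Cyp27a1 (sterol 27-hydroxylase) held a region at 1:74721017-74722773 with a fold of 1.629, whose Foxa2 peak was in all 5 lists and which also held an FXR peak with GW4064 (entry 775) and none with vehicle. In cholesterol synthesis and uptake, Fdft1 (squalene synthase) had 4.73%. In fatty acid oxidation, after Fabp1, came Ehhadh (a peroxisomal bifunctional enzyme) with 16.4%, in 3 regions of folds 2.417, 1.674 and 3.039, and Cyp4a10 with 10.8%. Ppara had 4 regions within 10 kb, while Cpt1a (carnitine palmitoyltransferase) and Acadm (an acyl-CoA dehydrogenase) had none.

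Hepatocyte genes were prominent too. Cebpa, a liver-enriched factor, lay wholly (100%) inside a region of 8532 bases with a fold of 1.169. Apoa2 had 93.6% of its body in the regions, Foxa1, the close relative of Foxa2, 28.7%, Nr1i3 (the xenobiotic receptor CAR) 9.87% and Alb 1.38%. Nr2f6 was the nuclear receptor gene covered whole, and Esrra had 21.3%. In the other lists the leading genes were Rbp4 (retinol binding protein, 43%), Serpinc1 (antithrombin, 19%), Cyp2d9 (54.5%), the clock genes Per2 (25%, 3 regions), Ciart (12.6%) and Tef (10.1%), and Ppargc1a (0.323%) for gluconeogenesis. Per2 stood just under the 25% limit and was not counted as covered.

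Markers of other liver cells are to be read against the 11% of all protein-coding genes with a region within 10 kb. None of 12 Kupffer cell markers and none of 12 stellate cell markers had one within 10 kb. The sinusoidal endothelial list had 2 of 12 (16.7%), in Tie1 (fold 1.994) and Oit3 (fold 2.657), and the cholangiocyte list 1 of 10. Foxa2 peaks outside GW3965 regions lay near 0 of 12, 1 of 12, 6 of 12 and 3 of 10 of these markers. The bulk peak lists carry no measure of cell composition, and its part in these counts was not tested.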

How the data were processed

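The files hold 27 peak lists of mouse liver. Reads were aligned with BWA to mm10 (submitters' processing notes; no version is stated). Peaks were called with PeakSeq, ATAC agonist against vehicle and ChIP against input, per the series text. The fold (ratio over control) and q-value of each region are the authors' own, as deposited; Foxa2 and WT FXR lists carry neither, so their file order (entry) was used. Depth is not given in these lists. Computed here, with python 3.11.15, numpy 2.4.6, pandas 2.3.3 and matplotlib 3.10.9: overlaps of at least 1 base, distances to protein-coding genes and gene starts (RefSeq, GRCm38, the build of mm10), and motif matches. All genes of 16 lists matched the table. The overlap step was tested on simulated regions. Regions and lists were chosen with earlier results of these data known. Named regions were the first 10, the 5 widest, the 5 of highest fold, the 5 with most Foxa2 peaks, up to 5 with LXR peaks among the first 1000 LXR entries, and up to 5 genes a list by percent covered. Promoters printed were those of named genes with a start in a region and a forkhead motif in the 250 bases before it, none on chromosome 18. RNA-seq was not used here. A few genes of the lists are not reported here by name.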

Additional observations from a re-analysis of the deposited data

How the results depend on the processing

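No paired analysis was possible because each list is 1 set of calls for a whole group and no result came from a test. The number of regions was 3679 with 50% of the Foxa2 peak required inside and 3036 with 1000 bases kept from other ATAC lists, 944 with the first 4000 Foxa2 entries alone, and 1815 with ATAC q up to 0.01. With regions of at least 600 bases, an alternative chosen after seeing the data, the share was 4.49% for FXR GW4064, 57.4% for Foxa2 GW4064, 67.4% for Foxa2 T09, 27.7% for Foxa2 vehicle, 1.62% for LXR GW and 18.2% for gene starts. With the first 2000 entries of each ChIP list it was 1.98%, 11.8%, 12.3%, 12.2% and 0.238% for the same 5 lists. Genes near a region numbered 2413 at 10 kb, 4801 at 50 kb and 1259 with q up to 0.01, and covered genes 127 at 25%, 300 at 10% and 50 at 50%, of which LXR targets 2, 3 and 1. LXR targets with a region nearby numbered 14 in the body, 21 within 50 kb and 11 with q up to 0.01. The direction of the differences with and without Foxa2 at q up to 0.01 (FXR 3.8% and 0.554%, LXR 1.54% and 0.542%, gene starts 14.2% and 4.12%) was that of all widths, and for LXR and gene starts it turned at 600 bases or more. With no replicate values or depths, neither error nor detection limits could be given.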

Other observations

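Some large genes held many of the regions, named here after their values were seen. Nfib, a nuclear factor I gene, had 9 within 10 kb, Foxn3 (a forkhead gene) and Rbm47 had 8 each, Thada 7, and Thrb (a thyroid hormone receptor gene) and Zbtb20 (a repressor of the alpha-fetoprotein gene) 6 each. Of the 3782 regions, 902 (23.8%) had another within 10 kb. Chromosome X had 68 regions, 2.9% of its GW3965 regions, where each autosome had between 5.05% and 6.75%.

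The regions whose FXR GW4064 peak stood highest in the FXR list, apart from those with peaks of all 4 antibodies, were in Usp2 (a deubiquitinase gene, FXR entry 13), 681 bases from Cth (cystathionine gamma-lyase, entry 20), 131566 bases from Tfap2c (entry 22), in Ifih1 (entry 35), in Mafg (a small Maf repressor of bile acid synthesis, entry 37) and in Pex2 (a peroxisome assembly factor, entry 39). Each also held an FXR peak with vehicle, and none held an FXR peak of Foxa2-KO liver. Such peaks were rare in all 3782 regions, at 0.0264% with GW4064 and 0.106% with vehicle. The shares of all GW3965 regions were 0.0557% and 0.0589%. The Foxa2-KO lists, of 3901 and 4284 peaks, are also shorter than the WT list with GW4064 (22705), so their absence here is not particular to these regions. Their deposited folds over vehicle with GW3965 were between 1.168 and 1.607.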
